A study of Mus musculus with 119 samples.

Results

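The response of mouse bone marrow-derived macrophages (BMDMs) to 0.5 h of lipopolysaccharide (LPS, a bacterial cell wall component that activates the receptor TLR4) was compared between cells treated with the MKK1/2 inhibitor PD0325901 and untreated wild-type (WT) cells. The comparison held 12 RNA-seq libraries, beside 107 others in the series, with 6 of them given the inhibitor (replicates 1 to 6) and 6 not (WT replicates 4 to 9), chosen by their labels and not by any measured value. All were BMDMs of C57BL/6 background that received 100 ng/ml LPS, and the inhibitor was given at 0.1 µM 10 min before LPS. The series addresses which early LPS-induced genes depend on the kinase TPL-2 (encoded by *Map3k8*), on MKK1/2 and ERK1/2 below it, and on the transcription factors downstream.

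Further groups served as points of reference. Without LPS there were 6 untreated WT libraries, 3 after 10 min of DMSO (the solvent of the inhibitor), and 3 each after 10, 40, and 70 min of PD0325901. With LPS there were 6 libraries each of PD0325901-treated and untreated WT BMDMs at 1 h, 6 libraries at 0.5 h of BMDMs homozygous for a kinase-inactive TPL-2 (*Map3k8* D270A/D270A, called D270A below), and 3 libraries at 0.5 h of WT BMDMs pre-treated with 2 µM RSKi47, an inhibitor of the ERK-activated kinases RSK1/2, beside 4 with RSKi47 and no LPS. The labels place the PD0325901 and DMSO libraries in one experiment and the untreated WT and D270A libraries in another, with those of RSKi47 in an experiment of their own, and LPS-stimulated cells that received DMSO alone were not analysed here. In a direct comparison of inhibitor-treated with untreated WT cells, the inhibitor and the experiment therefore cannot be told apart. The difference between DMSO-treated and untreated WT cells without LPS was used to measure what the experiments differed by without inhibitor, and it is given, or subtracted, beside the main results.

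LPS binding to TLR4 activates TPL-2, which phosphorylates MKK1/2, and these in turn phosphorylate ERK1/2. ERK1/2 phosphorylate ternary complex factors (TCFs), ETS-domain proteins such as ELK1 and ELK4 that bind beside serum response factor (SRF) at the promoters of immediate early genes, and they activate RSK and MSK kinases that phosphorylate CREB. Immediate early genes need no new protein synthesis for induction and many encode transcription factors of the EGR, FOS/JUN, and NR4A families. Their mRNAs are short-lived, so that their levels follow recent transcription closely. NF-κB, which LPS activates in parallel, drives most genes for cytokines and chemokines in macrophages.

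Promoter sequence is shown for 3 of the early genes that were lower with the inhibitor, because these 3 hold the letters of a CRE core, part of the sequence bound by CREB. The sequences are from RefSeq (mouse build GRCm38.p6) and read 5′ to 3′ toward the start of the gene. Capitals mark TGACG, the CRE core (CGTCA where it lies on the other strand), and CCGGAA, a form of the site bound by ETS-domain factors. Other forms of that site are not marked. *Fos* is shown from chr12:85473640-85473889 on the plus strand, *Fosb* from chr7:19310096-19310295 on the minus strand, and *Nr4a1* from chr15:101266596-101266845 on the plus strand. The whole *Nr4a1* window, and the last 23 bases of the *Fosb* window with its TGACG, lie inside the longer RefSeq spans of those genes, upstream of the starts used in the promoter table.
Fos: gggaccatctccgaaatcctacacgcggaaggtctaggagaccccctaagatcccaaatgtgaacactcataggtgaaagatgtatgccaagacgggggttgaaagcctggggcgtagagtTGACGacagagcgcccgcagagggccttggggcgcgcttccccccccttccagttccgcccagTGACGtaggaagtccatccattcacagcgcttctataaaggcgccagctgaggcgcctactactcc
Fosb: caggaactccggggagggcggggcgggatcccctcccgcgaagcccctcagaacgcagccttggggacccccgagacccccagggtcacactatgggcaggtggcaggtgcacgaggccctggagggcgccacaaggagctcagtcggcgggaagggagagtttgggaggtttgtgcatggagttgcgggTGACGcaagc
Nr4a1: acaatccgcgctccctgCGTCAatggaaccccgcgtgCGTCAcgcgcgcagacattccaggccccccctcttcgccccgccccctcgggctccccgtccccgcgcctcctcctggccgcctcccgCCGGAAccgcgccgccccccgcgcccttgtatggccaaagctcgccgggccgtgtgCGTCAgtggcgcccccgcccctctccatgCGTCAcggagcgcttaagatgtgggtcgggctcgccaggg

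The motifs were searched on both strands, from 250 bases before to 50 bases after each gene's start, in the 4 of 8 LPS-raised lower genes described below that had a promoter entry (*Fos*, *Fosb*, *Nr4a1*, and *Ier3*). TGACG was found in 3 of these 4 windows (75%), beside 46.4% of the 56 windows matched to the genes that LPS raised in untreated WT cells, 57.1% of the 7 matched to the other lower genes, 36% of the windows of 9215 tested genes that matched the promoter table and 20.8% of all 32851 windows. In *Nr4a1* it occurred 4 times, at -233 to -229, -213 to -209, -69 to -65, and -40 to -36 relative to the start, and in *Fos* at -129 to -125 and at -66 to -62. The *Fosb* match lay at -60 to -56. A κB site was found in 4 of the 4 windows, beside 26.8% of those of the LPS-raised genes, from which the 4 were drawn, 42.9% of those of the other lower genes, and 6.26% of those of the tested genes. It lay at -214 to -205 in *Fos*, at -188 to -179 in *Fosb*, at -92 to -83 in *Ier3*, and at -3 to 7 in *Nr4a1*. The ETS form CCGGAA was found in 1 of 4, at -125 to -120 in *Nr4a1*, and in 32.4% of windows of tested genes. Other forms of the ETS site were not searched. Neither the SRF-bound CArG box nor the AP-1 site TGANTCA was found in any of the 4. Only exact matches inside the windows were searched, so sites with a mismatch or farther from the start are not covered. The paper reports SRF bound at the *Nr4a1* promoter by chromatin immunoprecipitation. No 2 of these motif matches overlapped. The matches describe these windows and are not evidence of binding.

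Values are on the log scale of the deposited table, named log2 here, and a difference of 1 on this scale cannot be converted exactly to a fold because none of the sources used here gives the transformation. Over the 11971 genes tested, the median value of a library lay between 9.03 and 9.09. No pair of libraries held identical values, and the root mean square difference between libraries was 0.112 to 0.152 within the inhibitor-treated group and 0.13 to 0.283 within the WT group. Sequencing depth is unknown from this table. Macrophage markers were high in both groups, with *Csf1r*, the receptor for the growth factor M-CSF, at 14.83 to 15.20 in WT and 14.94 to 15.00 in inhibitor-treated libraries, and *Cd68* at 15.15 to 15.39 and 15.28 to 15.39. The study's methods call the libraries biological replicates, without saying whether they came from separate animals or cultures. The p-values rest on the spread between libraries within groups, pooled over all groups of the series and not taken from the compared groups alone.

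In the comparison at 0.5 h of LPS, 23 genes (0.192% of those tested) were lower and 26 (0.217%) higher with PD0325901, counting genes that differed by 1 or more with a limma adjusted p below 0.05. For 971 genes (8.11%) all inhibitor-treated values lay below all untreated values, and for 981 (8.19%) all lay above. Of the 23 lower genes, 8 were also raised by LPS in untreated WT cells by the same criteria: *Egr1*, *Egr3*, *Fosb*, *Nr4a1*, *Bmp2*, *Ier2*, *Fos*, and *Ier3*. Their median difference was -1.64, while DMSO-treated cells without LPS differed from untreated WT cells by a median of -0.21 for the same genes. The WT libraries at 0.5 h of LPS enter both the inhibitor comparison and the LPS comparison, so the selection of these 8 genes favours high WT values.

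*Egr1* (chr18:34861207-34864956), a zinc-finger transcription factor and a classical target of SRF and the TCFs, had the largest difference. Its values in untreated WT cells with LPS were 13.02 at the lowest, 13.17 at the median, and 14.27 at the highest, and in inhibitor-treated cells with LPS they were 8.72, 8.88, and 8.92. Every inhibitor-treated library thus lay far below every untreated one, and above the 7.70 to 8.33 of untreated cells without LPS. The difference was -4.48 (SE 0.14, 95% interval -4.77 to -4.19, limma adjusted p = 4.3e-48). With LPS alone *Egr1* rose by 5.34, and with the inhibitor it rose by 1.94 from the level after 40 min of PD0325901.

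*Egr3* (chr14:70077317-70082613), of the same family, ranged over 8.95, 9.44, and 10.03 (lowest, median, highest) in WT cells with LPS and over 7.27, 7.35, and 7.44 with the inhibitor, a difference of -2.10 (SE 0.13, limma adjusted p = 8.3e-25). Without LPS it was at 6.81 to 7.20 in WT and 6.78 to 6.89 in DMSO-treated cells, so the inhibitor-treated libraries with LPS lay just above those without. *Fosb* (chr7:19302696-19310118), a partner of JUN proteins in AP-1, ranged over 7.89, 8.65, and 9.34 in WT cells with LPS and over 6.64, 6.66, and 6.69 with the inhibitor. The inhibitor-treated values sat at the level of cells without LPS (6.59 to 6.67 in WT), and the difference was -1.95 (SE 0.12, limma adjusted p = 5.1e-27). Its rise with LPS was 2.00 in WT cells and 0.13 with the inhibitor, of which the latter did not pass the test (limma adjusted p = 0.62).

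*Nr4a1* (chr15:101253902-101274795), an orphan nuclear receptor, ranged over 10.14, 10.91, and 11.58 in WT cells and over 8.95, 9.12, and 9.23 with the inhibitor. The groups did not overlap, and the difference was -1.74 (SE 0.18, limma adjusted p = 1.7e-13). *Fos* (chr12:85473890-85477274), the founding AP-1 subunit, ranged over 13.59, 13.86, and 13.99 in WT cells and over 12.35, 12.51, and 12.66 with the inhibitor, a difference of -1.35 (SE 0.11, limma adjusted p = 4.6e-19). All inhibitor-treated *Fos* values remained well above the 10.34 to 10.98 of WT cells without LPS.

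*Ier2* (chr8:84661331-84662852), an immediate early nuclear protein, ranged over 12.81, 13.01, and 13.22 in WT cells and over 11.42, 11.50, and 11.59 with the inhibitor. *Ier3* (chr17:35821713-35822911), a stress-inducible regulator of cell survival, ranged over 10.48, 10.56, and 10.76 and over 9.44, 9.59, and 9.69. Both were separated without overlap, by -1.50 (SE 0.079, limma adjusted p = 1.0e-30) and -1.00 (SE 0.094, limma adjusted p = 2.6e-15). *Bmp2* (chr2:133552159-133562896), a secreted ligand of the TGF-β family, ranged over 5.82, 6.82, and 7.46 in WT cells and over 5.08, 5.23, and 5.49 with the inhibitor, a difference of -1.53 (SE 0.17, limma adjusted p = 8.2e-12). *Bmp2* differed from the other 7 in that DMSO-treated cells (4.62 to 4.64) already lay below untreated WT cells (5.18 to 6.17) without LPS.

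When the DMSO difference was subtracted from the inhibitor difference, 7 of the 8 genes still passed the test and *Bmp2* did not (-0.41, limma adjusted p = 0.78). The subtracted differences were -4.31 for *Egr1*, -1.92 for *Egr3*, -1.89 for *Fosb*, -1.45 for *Fos*, -1.29 for *Nr4a1* (limma adjusted p = 0.0043), -1.26 for *Ier2*, and -0.71 for *Ier3* (limma adjusted p = 0.0025). Over all genes tested, 7 (0.0585%) were lower and 1 (0.00835%) higher by the same criteria after this subtraction. The lower ones were *Egr1*, *Egr3*, *Fosb*, *Fos*, *Nr4a1*, *Ier2*, and *Clk1*, a kinase of splicing factors. *Clk1* was at -0.41 before the subtraction, with a DMSO difference of 0.64, and the 1 higher gene, the linker histone *Hist1h1c*, was at 0.02 with a DMSO difference of -1.01, so neither reached the threshold without the DMSO term.

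The other 15 lower genes had a median difference of -1.12 and a median DMSO difference of -0.94 without LPS, where 12 of 15 passed the test (adjusted p below 0.05 alone, which 11.1% of all genes passed as lower and 12.5% as higher). None of the 15 passed after the subtraction. They include *Sorbs3* (vinexin, an adaptor of cell adhesions), at 7.18, 7.92, and 8.55 in WT cells and 6.38, 6.44, and 6.57 with the inhibitor, a difference of -1.42. In DMSO-treated cells without LPS it was at 6.48 to 6.61, so the inhibitor-treated libraries lay at the DMSO level. The same order held for *As3mt*, an arsenic methyltransferase (7.30 at the WT median, 5.99 with the inhibitor, 5.95 to 6.04 with DMSO), and for *Slc40a1*, the iron exporter ferroportin (12.10, 10.98, and 11.12 to 11.18).

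Other members of this set were *H2-Q8* (-1.48), *H2-Q9* (-1.30), and *H2-Q7* (-1.15), class Ib MHC genes of near-identical sequence that can share reads and are uncertain one by one. *Vegfa*, the vascular growth factor, ranged over 10.78, 11.16, and 11.49 in WT cells and 9.83, 9.99, and 10.23 with the inhibitor, a difference of -1.14 beside a DMSO difference of -0.90. The set was completed by *Dmpk* (-1.24), *Gdf3* (-1.12), *Neat1* (-1.12), *Lrrc17* (-1.08), *Serpinb1a* (-1.07), *Adam19* (-1.06), *Tgm2* (-1.03), and *Dmwd* (-1.00). *Neat1*, a nuclear long noncoding RNA, had a DMSO difference of -0.38 that did not pass the test (limma adjusted p = 0.39), and after subtraction it was at -0.74 (limma adjusted p = 0.66).

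Of the 26 higher genes, 25 also differed between DMSO-treated and untreated WT cells without LPS, and 0 of 26 passed after subtraction. Their median difference was 1.18 and their median DMSO difference 1.26. Most fall in 3 groups of known function, of which that of lipid synthesis was named after its values were seen, and the others were *Igf2bp3*, *Cyp2s1*, *Penk*, *Sel1l3*, *F10*, *Pianp*, and *Itgb7*. Genes of neutrophil granules and calprotectin led: *Ngp* was at 3.53, 4.17, and 4.54 in WT cells and 5.76, 5.90, and 6.03 with the inhibitor (difference 1.79), and at 5.15 to 5.92 with DMSO and no LPS. *S100a9* differed by 1.66, *Ltf* (lactoferrin) by 1.61, and *S100a8* by 1.21.

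Of 9 neutrophil markers tested, 8 were higher and 0 lower with the inhibitor at a limma adjusted p below 0.05, by which 14.5% of all genes tested were higher and 15% lower. Of the same 9, 6 were higher in DMSO-treated than in untreated WT cells without LPS, where 12.5% of all genes were. Their summed level was 9.18 to 10.03 in WT cells with LPS, 10.21 to 10.38 with the inhibitor, and 10.1 to 10.31 with DMSO. In bulk libraries, fewer cells of a type and less RNA per cell cannot be told apart. The part of neutrophil RNA in any gene's difference was not tested, and the macrophage markers had summed levels of 18.96 to 19.15 in WT and 19.07 to 19.17 in inhibitor-treated libraries. Of 13 macrophage markers 3 were lower and 2 higher, to be read against the same shares of all genes, and *Aif1* (-0.70) and *Mertk* (-0.49) had DMSO differences of -0.55 and -0.33. Single markers of other cell types differed in both directions: the B cell genes *Cd22* by -0.44 and *Cd79b* by 0.55, the mast cell receptor *Kit* by -0.79, and the myelin gene *Mag* by -0.53, as did the small RNA gene *Rn4.5s* (-0.62). The other tested mast and basophil marker, *Hdc*, was at 0.48 and did not pass (limma adjusted p = 0.057). The other tested glial marker, *Mbp*, was at -0.002 and did not pass. Of 4 dendritic cell markers, *Ccr7* (0.27) and *Xcr1* (0.27) were higher, *Itgax* (0.36) and *Zbtb46* (0.03) did not pass, and 0 were lower. *Xcr1* no longer passed in 9 and *Ccr7* in 1 of the 12 fits that left out 1 library. None of these markers of other cell types, nor *Rn4.5s*, passed after subtraction. Of those that passed before it, *Mag* alone passed against both sets of WT replicates, 4 to 6 and 7 to 9. The macrophage markers *Aif1* and *Mertk* and the neutrophil markers *Ngp*, *S100a9*, *Ltf*, and *S100a8* passed against both sets. The macrophage marker *Fcgr1* did not pass against replicates 7 to 9 (0.36, limma adjusted p = 0.090).

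Enzymes of sterol and fatty acid synthesis formed the second group: *Fdps*, *Fdft1*, *Mvd*, *Idi1*, *Lss*, *Cyp51*, *Hmgcs1*, *Acat2*, *Acss2*, and the desaturase *Scd1*. *Scd1* was at 9.90, 10.13, and 10.62 in WT cells with LPS and at 11.49, 11.81, and 11.84 with the inhibitor, a difference of 1.53, and at 11.60 to 11.70 with DMSO and no LPS. *Hmgcs1*, which makes the precursor of mevalonate, was at 11.02, 11.41, and 11.64 against 12.35, 12.39, and 12.47, and at 12.60 to 12.73 with DMSO. For these enzymes too the inhibitor-treated libraries lay near the DMSO libraries and away from the untreated ones. The third group were interferon-induced genes (*Ifit1bl1*, *Ifit2*, *Ifit3*, *Ifit3b*, and *Gvin1*). *Ifit3* was at 10.36, 10.63, and 11.03 against 11.32, 11.75, and 12.13, a difference of 1.11, with 12.13 to 12.27 under DMSO. *Ifit3* and *Ifit3b* are close copies that can share reads. Among 29 interferon-linked genes tested, which include *Ifnb1* and interferon regulatory factors beside induced genes, 20 were higher and 1 lower with the inhibitor (median 0.51), the lower one being *Irf3* (-0.21), where 14.5% and 15% of all genes were. With DMSO and no LPS 22 were higher and 0 lower (median 0.77), where 12.5% and 11.1% of all genes were, and 0 passed after subtraction (median -0.22).

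**Figure D1:**
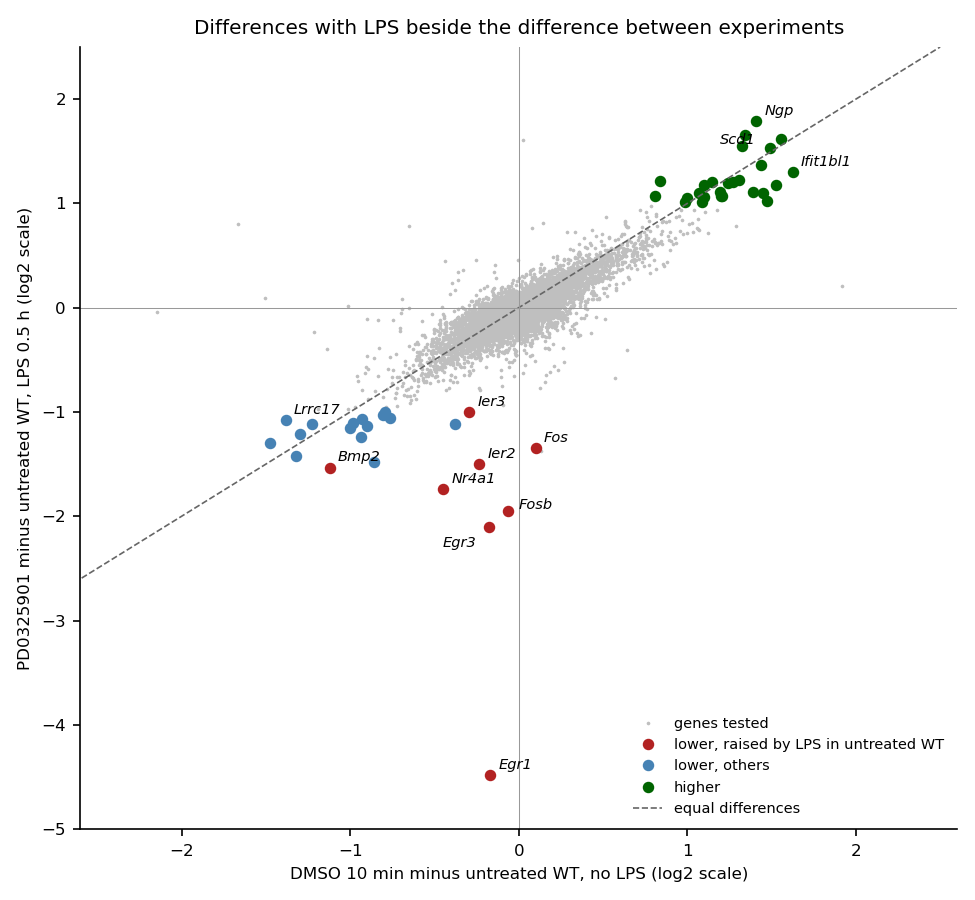
Difference between PD0325901-treated and untreated WT cells at LPS 0.5 h (y axis) against the difference between DMSO-treated and untreated WT cells without LPS (x axis), both on the deposited log2 scale, for each gene tested. Red points are the 8 lower genes that LPS raised in WT, blue points the other 15 lower genes, green points the 26 higher genes, and the dashed line marks equal differences; the green and most blue points lie near that line, and the red points other than *Bmp2* (-1.53 on the y axis) lie well below it.

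LPS for 0.5 h raised 74 genes (0.618% of those tested) in untreated WT cells and lowered 0 by the size and p criteria, with 452 lower (3.78%) at an adjusted p below 0.05 alone in limma. With the inhibitor, 36 of these 74 genes (48.6%) were lower and 3 (*Plk2*, *Sgk1*, and *F3*) higher than in untreated cells at an adjusted p below 0.05, where 15% and 14.5% of all genes tested were. The median difference of the 74 was -0.25, beside -0.01 over all genes. In the DMSO comparison without LPS their median was -0.04, with 8 lower and 3 higher, where 11.1% and 12.5% of all genes were. After subtraction 15 of the 74 were lower and 1 higher, with a median of -0.21, where 0.652% and 0.142% of all genes were. The direction of these counts shares the WT libraries with the choice of the 74 genes.

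The other 35 of the 74 did not pass at the adjusted p in limma. Among them *Tnf*, a major cytokine target of NF-κB, was at 14.90, 15.30, and 15.87 in WT cells and 15.26, 15.31, and 15.38 with the inhibitor, and the groups overlapped (difference -0.04, limma adjusted p = 0.75). Its rise with LPS was 3.81 in WT and 3.97 with the inhibitor. The neutrophil chemoattractant *Cxcl2* rose by 3.96 and 4.11, while its relatives *Cxcl1* (-0.40) and *Cxcl3* (-0.42) were among the 36 lower genes, although *Cxcl3* did not pass against WT replicates 4 to 6 (-0.24, limma adjusted p = 0.19). *Nfkbia*, which encodes the NF-κB inhibitor IκBα, was lower by 0.22 with the inhibitor (-0.22, limma adjusted p = 0.00040), with a DMSO difference of -0.17 and -0.04 after subtraction, and rose with LPS by 3.17 and 3.22. With the inhibitor present LPS raised 70 genes (0.585%) and lowered 32 (0.267%) by the size and p criteria, and 58 of the raised genes were among the 74. These responses are relative to the 3 libraries at 40 min of inhibitor, and 29 of the 32 lowered genes were higher in those libraries than with DMSO.

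The LPS responses themselves were compared by subtracting the rise in WT cells from the rise in inhibitor-treated cells, the latter taken from 40 min of PD0325901 without LPS, which matches the total time with inhibitor. The response was smaller for 36 genes (0.301%) and larger for 3 (0.0251%). Of the 36, 7 were raised by LPS in WT: *Egr1* (-3.40), *Fosb* (-1.87), *Egr3* (-1.55), *Ier2* (-1.29), *Nr4a1* (-1.24, limma adjusted p = 0.0050), *Dusp2* (-1.01), and *Spry1* (-1.00). *Dusp2* is a nuclear phosphatase of MAP kinases, and *Spry1* is an inhibitor of receptor signalling to ERK. *Spry1* rose by 1.00 in WT and stood at -0.00 with the inhibitor, but its level after 40 min of the inhibitor alone (4.98 to 5.24) was above that with DMSO (4.16 to 4.26), and from the 10 min inhibitor baseline its response differed by -0.14.

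A further 28 of the 36 genes were higher after 40 min of PD0325901 than after DMSO, and 0 of the 28 were raised by LPS in WT. They include *Mir6236* (-5.66), *Igfbp2* (-4.56), and *Fabp7* (-4.34), and *Olig1*, *Slc1a3*, and *Gpm6b*, genes known from glial cells. *Fabp7* was at 7.07 to 8.13 after 40 min of inhibitor, at 2.87 to 3.06 with DMSO, and at 2.78 to 3.43 with inhibitor and LPS. The 3 libraries at 40 min of inhibitor thus stood apart for these genes, and the LPS libraries did not. The fixed glial list (2 genes tested) had summed levels of 10.45 to 10.55 at 40 min and 10.41 to 10.50 with DMSO, and the source of the other genes' reads was not tested.

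With the 10 min inhibitor libraries as baseline, 10 genes (0.0835%) had a smaller and 2 (0.0167%) a larger response, and 5 of the 10 were among the 36. *Egr1* (-4.29), *Fosb* (-1.88), *Egr3* (-1.73), *Fos* (-1.41), *Nr4a1* (-1.22), and *Ier2* (-1.21) were among the 10. *Fos* was the member most changed by the baseline: from 40 min of inhibitor its rise was 3.06, beside 3.15 in WT cells, and the difference was -0.09 (limma adjusted p = 0.95). Without LPS, *Fos* was at 9.35 to 9.52 after 40 min of inhibitor and at 10.76 to 10.81 with DMSO. *Dusp6* turned with the baseline, from a response that was larger by 0.57 (40 min, limma adjusted p = 0.0086) to one that was smaller (-0.55, 10 min, limma adjusted p = 0.012). The level of *Fos* was therefore lower with the inhibitor both without LPS (-1.35 against DMSO) and with LPS (-1.35 against WT).

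PD0325901 alone was compared with DMSO, whose libraries were taken at 10 min, so that the later times are not matched in duration. After 10 min, 0 genes passed in either direction in limma, and 245 (2.05%) had an unadjusted p below 0.05. After 40 min, 3 genes (0.0251%) were lower and 32 (0.267%) higher by the size and p criteria, and 239 (2%) and 122 (1.02%) by the limma adjusted p alone. The lower ones by size were *Fos* (-1.35), *Mir684-1* (-1.30), and *Dusp6* (-1.13), a cytoplasmic phosphatase specific for ERK1/2 and a standard reporter of ERK activity. *Dusp6* was at 9.67 to 9.74 with DMSO, 8.56 to 8.58 after 40 min of inhibitor, and 7.46 to 7.79 after 70 min. The transcription factor *Myc* was likewise lower after 40 min (-0.93), whereas with LPS it did not differ detectably between inhibitor-treated and untreated cells (0.09).

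**Figure D2:**
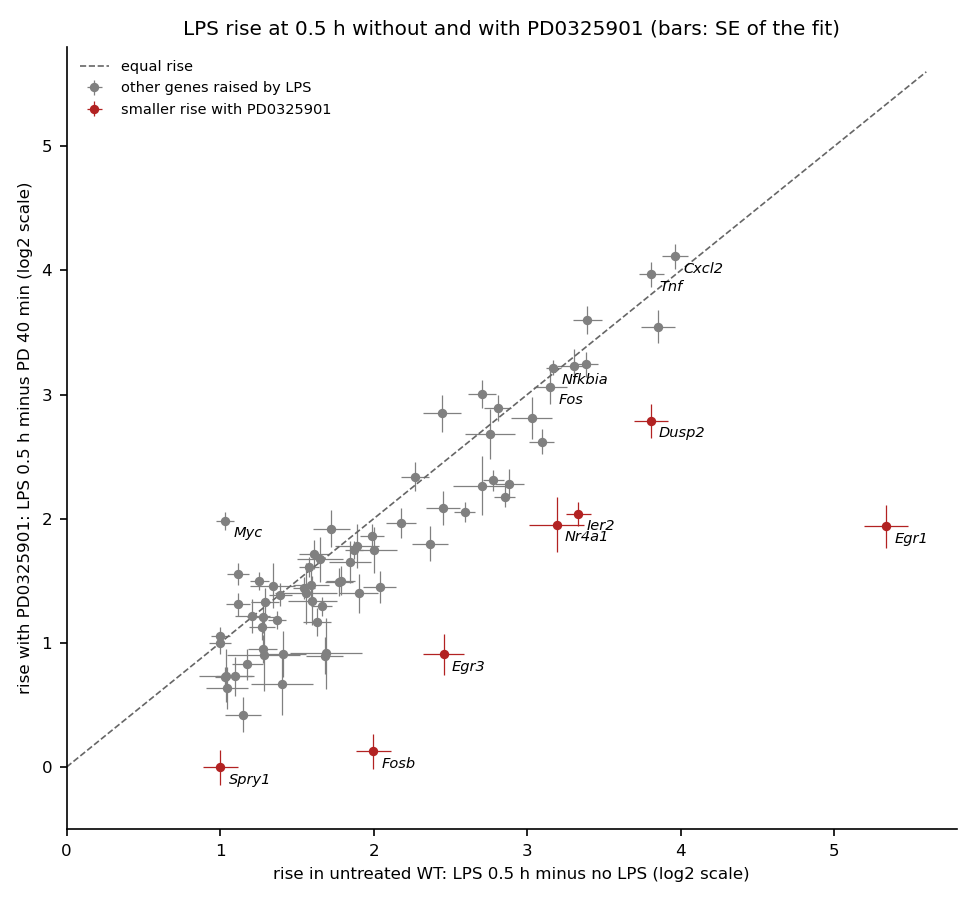
Rise with LPS for 0.5 h in untreated WT cells (x axis) and in PD0325901-treated cells relative to 40 min of inhibitor without LPS (y axis), on the deposited log2 scale, for the 74 genes raised in WT, with SE bars. The 7 genes with a smaller response are red, the dashed line marks equal rises, and *Fosb* (2.00 on the x axis and 0.13 on the y axis) and *Spry1* (1.00 and -0.00) lie at the bottom, while *Tnf* (3.81 and 3.97) lies near the line.

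Gene lists were then described by role. Each count gives members at a limma adjusted p below 0.05 in the comparison at 0.5 h of LPS, to be read against 15% lower and 14.5% higher over all genes tested, and counts after subtraction of the DMSO difference against 0.652% lower and 0.142% higher. Among 12 subunits of AP-1 and related factors, 8 were lower and 0 higher (median -0.32), and 4 were lower after subtraction of the DMSO difference: *Fosb*, *Fos*, *Junb*, and *Jun*. *Junb*, a FOS partner, was at 14.04, 14.31, and 14.68 in WT and 13.70, 13.80, and 13.85 with the inhibitor. The groups were apart, with a difference of -0.57 (SE 0.068). *Jun* differed by -0.36 and *Fosl1* by -0.38 (limma adjusted p = 0.024), and *Fosl1* no longer passed without WT replicate 7 (-0.29), WT replicate 9 (-0.29), or PD0325901 replicate 4 (-0.32). *Fosl2* (-0.11) did not pass, and *Jund* (-0.18, limma adjusted p = 0.028) was at -0.17 and no longer passed without WT replicate 4 or 9 or PD0325901 replicate 2, and it turned to 0.18 after subtraction.

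Of 8 genes of the EGR, NAB, and NR4A families, 5 were lower and 0 higher (median -0.45), and 5 were lower after subtraction. Besides *Egr1*, *Egr3*, and *Nr4a1* these were *Egr2* and *Nab2*, an EGR corepressor (-0.28). *Egr2* was at 11.98, 12.33, and 13.17 in WT and 11.74, 11.77, and 12.04 with the inhibitor, so the groups overlapped, and the difference was -0.62 (limma adjusted p = 2.0e-05). *Nr4a2* (-0.26), *Nr4a3* (-0.23), and *Nab1* (0.02) did not pass. The difference within the NR4A family was thus large for *Nr4a1* alone in this comparison, although the members were not tested against each other. With LPS in untreated WT cells *Nr4a1* rose by 3.19. *Nr4a2* (0.17, limma adjusted p = 0.56) and *Nr4a3* (0.25, limma adjusted p = 0.41) showed no detectable rise that the inhibitor could reduce.

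Other immediate early genes, 36 tested, held 15 lower and 4 higher members (median -0.14), and 6 lower and 3 higher after subtraction. *Ier2* and *Ier3*, described above, are members. Genes counted in more than 1 list include *Btg2*, *Srf*, *Lif*, *Btg1*, *Zc3h12a*, *Cxcl10*, *Nfkb1*, *Ifnb1*, and *Acta2*. *Btg2*, an antiproliferative recruiter of mRNA deadenylases, was at 13.14, 13.35, and 13.58 in WT and 12.40, 12.43, and 12.45 with the inhibitor (difference -0.93, -0.83 after subtraction). *Arc* differed by -0.71, the polo-like kinase *Plk3* by -0.52, and the H3K27 demethylase *Kdm6b* by -0.75, of which *Kdm6b* did not pass after subtraction (limma adjusted p = 0.089). *Cebpb* (-0.94) had a DMSO difference of -0.72. Higher members were *Klf4*, *Sgk1*, *Plk2*, and *Bhlhe40*. *Klf4*, a zinc-finger factor of macrophages, was at 8.50, 8.61, and 8.67 in WT and 8.90, 9.01, and 9.16 with the inhibitor, without overlap, and the difference was 0.41 (0.55 after subtraction, limma adjusted p = 0.046). *Bhlhe40* was 0.40 higher beside a DMSO difference of 0.86 and turned to -0.46 after subtraction, while *Trib1*, at -0.12, turned to 0.63 with a DMSO difference of -0.75.

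The feedback regulators of ERK1/2 varied. Of 11 dual-specificity phosphatases, 4 were lower and 2 higher (median -0.02), and *Dusp2*, *Dusp6*, and *Dusp7* were lower after subtraction. *Dusp6* was at 10.12, 10.21, and 10.26 in WT and 9.31, 9.41, and 9.44 with the inhibitor, without overlap (difference -0.79, SE 0.085, limma adjusted p = 1.1e-12). *Dusp2* was at 10.95, 11.60, and 12.20 against 10.68, 10.85, and 10.96, and the groups touched (difference -0.77). *Dusp5* was lower as well (-0.72), with a DMSO difference of -0.53 and -0.19 after subtraction (limma adjusted p = 0.94), and it was at -0.08 against WT replicates 4 to 6 (limma adjusted p = 0.68) and -1.37 against replicates 7 to 9. The phosphatases *Dusp8* (0.26) and *Dusp10* (0.29) were higher. *Dusp1* (-0.09) and *Dusp4* (-0.02) did not pass.

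Of 13 Sprouty, Spred, and EGF receptor pathway genes and related ERK targets, 3 were lower (*Hbegf* -0.66, *Lif* -0.52, and *Spred3* -0.40), 0 were higher, and 0 passed after subtraction. Against WT replicates 4 to 6 alone *Hbegf* (-0.30, limma adjusted p = 0.17) and *Lif* (-0.16, limma adjusted p = 0.34) did not pass. The kinases, scaffolds, and transcription factors of the pathway itself changed little at the mRNA level, with 3 of 22 lower and 1, the p38 kinase kinase *Map2k6* (0.26), higher (median -0.03). *Map3k8* (-0.11), *Elk1* (-0.03), and *Elk4* (-0.07) did not pass, while *Srf* was lower by 0.23 and did not pass after subtraction. Among 10 genes of mRNA decay, 5 were lower and 0 higher (median -0.16), and *Btg2*, *Zfp36*, and *Tob2* were lower after subtraction. *Zfp36*, or tristetraprolin, which destabilises cytokine mRNAs, differed by -0.39 (-0.18 and not passing against WT replicates 4 to 6, limma adjusted p = 0.16), and *Tob2*, a partner of the deadenylase complex, by -0.35. *Zfp36l1*, a relative of *Zfp36*, was lower by 0.43 (-0.43), with a DMSO difference of -0.32.

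Of 22 cytokine genes, 5 were lower and 0 higher (median -0.19), with *Gdf15* (-0.53) the 1 that passed after subtraction (-0.79). *Il1rn*, the interleukin-1 receptor antagonist, differed by -0.59, with a DMSO difference of -0.49. *Il10*, an anti-inflammatory cytokine, was at 8.82, 8.90, and 9.49 in WT and 8.29, 8.37, and 8.57 with the inhibitor. Those groups did not overlap, and the difference was -0.66 (limma adjusted p = 0.0066, and -0.63 with an adjusted p of 0.59 after subtraction). *Ifnb1* (0.25, limma adjusted p = 0.47) was at 4.48 to 5.12 in WT and 4.80 to 5.25 with the inhibitor, at or just above the 4.44 to 4.74 of unstimulated cells. *Csf2*, the growth factor GM-CSF, did not pass either (0.17, limma adjusted p = 0.46).

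Chemokines held 5 lower and 1 higher of 17 (median -0.06), with 0 passing after subtraction (median -0.21), and were led by *Ccl7* (-0.53) and *Cx3cl1* (-0.51), whose DMSO differences were -0.28 and -0.49. *Ccl7* did not pass against WT replicates 4 to 6 (-0.22, limma adjusted p = 0.22), nor *Cx3cl1* against replicates 7 to 9 (-0.42, limma adjusted p = 0.075). The higher one, *Cxcl10* (0.64), had a DMSO difference of 0.90 and did not pass against WT replicates 7 to 9 (0.44, limma adjusted p = 0.18). Among 30 NF-κB target and feedback genes, 13 were lower and 2 higher (median -0.10), with *Rab20* (-0.64), *Marcksl1* (-0.60), *Nfkbid* (-0.52), and *Traf1* (-0.51) at the front. The DMSO difference was -0.40 for *Rab20* and -0.53 for *Traf1*. *Marcksl1* was at -0.24 against WT replicates 4 to 6 and at -0.95 against replicates 7 to 9, and passed against both. After subtraction *Nfkbid*, a nuclear IκB protein, was the 1 lower gene, and it was at -0.19 against WT replicates 4 to 6 (limma adjusted p = 0.14) and -0.85 against replicates 7 to 9. *Nfkb1* was at 0.01. Of 21 SRF targets, mostly genes of the cytoskeleton, many of which respond to actin through MRTF cofactors, 6 were lower and 5 higher (median -0.03). *Cnn2* was at -0.50, *Lima1* at -0.25, and *Actb* at -0.22. Of 21 heat shock and stress genes 2 were lower and 5 higher (median -0.04), with *Atf4* at 0.24. *Trib3* was at 0.29 and did not pass against WT replicates 7 to 9 (0.21, limma adjusted p = 0.30) or in 6 of the 12 fits that left out 1 library. Of both lists, *Mcl1* (-0.19, and -0.41 after subtraction) was the 1 that passed after subtraction. It is an anti-apoptotic gene counted in the SRF list and not a gene of the cytoskeleton.

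**Figure D3:**
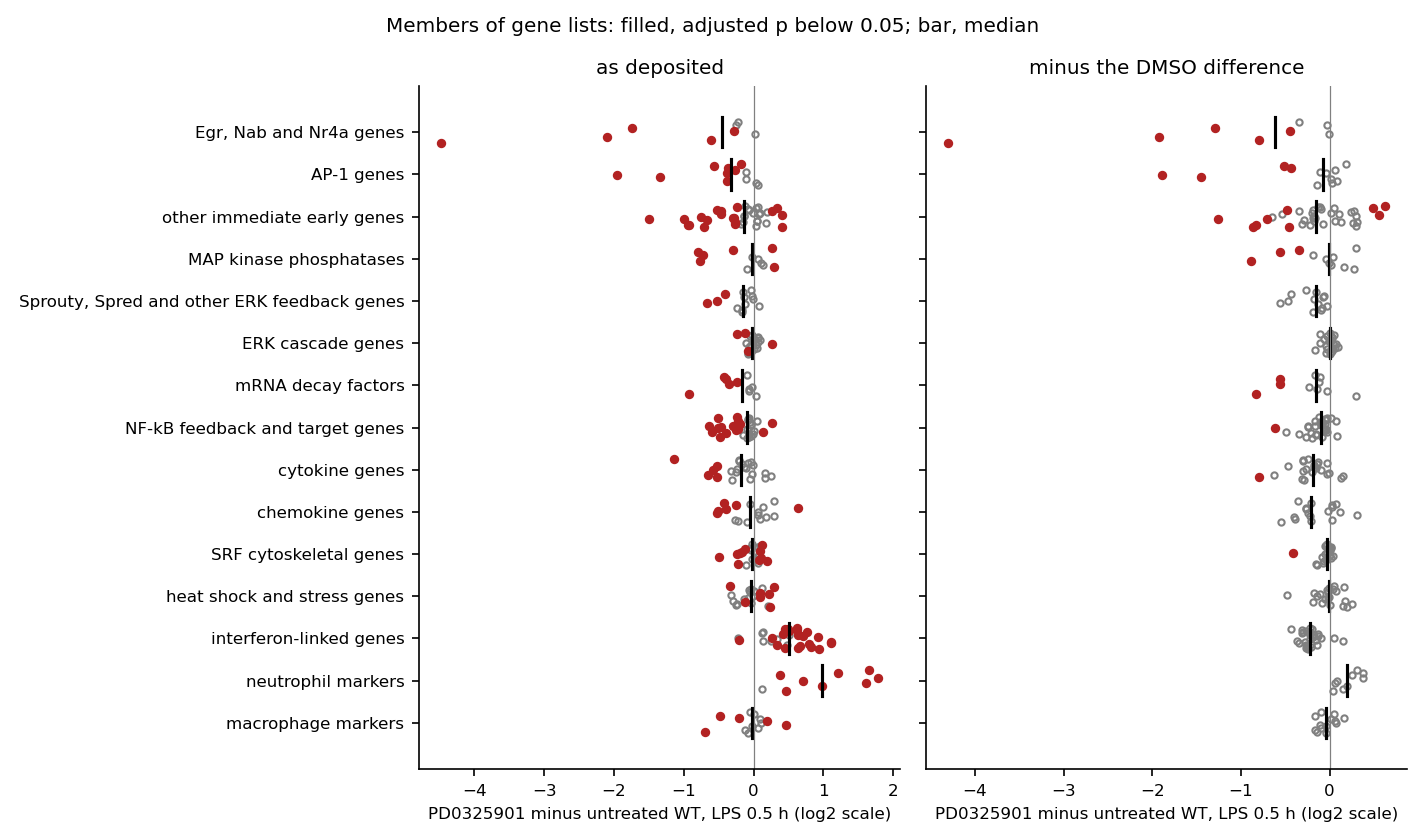
Difference between PD0325901-treated and untreated WT cells at LPS 0.5 h on the deposited log2 scale (x axis) for the members of 15 gene lists (y axis), as deposited (left) and after the DMSO difference without LPS was subtracted (right). Filled points have a limma adjusted p below 0.05 and bars are list medians, and the panels have separate x axes; the interferon list moves from a median of 0.51 to -0.22 between the panels, whereas the EGR, NAB, and NR4A list stays below 0 (-0.45 and -0.62).

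At 1 h of LPS the difference between inhibitor-treated and untreated cells had grown for a further set of genes. The difference at 1 h was lower than that at 0.5 h by at least 1 for 9 genes (0.0752%) and higher for 3 (0.0251%). *Csf2* differed by 0.17 at 0.5 h and by -2.24 at 1 h, the cytokine subunit *Il23a* by -0.25 and -1.73, and *Lif* by -0.52 and -1.85. *Csf2* was at 3.49 to 5.16 in WT at 0.5 h and at 8.03 to 9.31 at 1 h, so most of its rise came after the 0.5 h libraries. The same held for *Il23a*, at 3.34 to 4.43 and then 7.01 to 9.11. *Il1bos*, *Plat*, *Fosl1*, *Errfi1*, *Il1a*, and *Elmsan1* completed the lower set.

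Type I interferons formed the higher set. *Ifnb1* differed by 0.25 at 0.5 h and by 3.62 at 1 h, *Ifna2* by -0.02 and 1.69, and *Ifna5* by -0.02 and 1.47. Among the 8 early genes, the change between the times passed for *Ier3* alone (-1.00 at 0.5 h and -1.58 at 1 h, limma adjusted p = 0.0064). *Egr1* was at -4.48 and -4.22, *Egr3* at -2.10 and -2.42, *Fos* at -1.35 and -1.44, *Fosb* at -1.95 and -1.83, and *Nr4a1* at -1.74 and -1.79. For these the limma adjusted p of the change was 0.9999, which does not show that the differences were equal.

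The 8 early genes were next set beside cells with kinase-inactive TPL-2, in which the same pathway is blocked upstream. The inhibitor and D270A comparisons share the WT libraries at 0.5 h, and the direct difference between the treated and mutant groups does not use them. Between inhibitor-treated WT and D270A cells at 0.5 h, 21 genes (0.175%) were lower and 31 (0.259%) higher with the inhibitor. *Egr1* was at 8.66 to 9.15 in D270A and 8.72 to 8.92 in inhibitor-treated cells. The groups overlapped, with a difference of -0.07 (95% interval -0.36 to 0.22, limma adjusted p = 0.76), while each lay more than 4 below WT (-4.41 and -4.48).

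*Egr3* was at 8.12 to 8.52 in D270A and 7.27 to 7.44 in inhibitor-treated cells, and the 0.94 by which the latter were lower passed the test (-0.94, 95% interval -1.21 to -0.67, limma adjusted p = 2.3e-08), also after subtraction of the DMSO difference (-0.76, limma adjusted p = 0.039). *Fosb* was lower with the inhibitor by 0.48 (-0.48, 95% interval -0.71 to -0.25), *Nr4a1* by 0.46 (-0.46, -0.82 to -0.11), and *Fos* by 0.31 (-0.31, -0.52 to -0.10). After subtraction these 3 did not pass (-0.42, -0.02, and -0.41). *Ier2* (0.18, 95% interval 0.03 to 0.34, limma adjusted p = 0.063) and *Ier3* (-0.19, -0.38 to -0.01, limma adjusted p = 0.11) did not pass in either form.

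*Dusp6* separated the 2 conditions further. It was at 9.94 to 10.22 in D270A cells, within 0.09 of WT on average (-0.09, limma adjusted p = 0.71), and at 9.31 to 9.44 with the inhibitor (difference from D270A -0.70, limma adjusted p = 1.3e-10, and -0.47 with an adjusted p of 0.051 after subtraction). *Bmp2* was at 5.88 to 6.88 in D270A cells and 5.08 to 5.49 with the inhibitor, and that difference went to 0.03 after subtraction. *Btg2* (0.12) and *Junb* (0.06) did not pass. After subtraction 5 genes (0.0418%) were lower and 4 (0.0334%) higher with the inhibitor than in D270A cells, and 0 of the 8 early genes were among them.

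RSKi47 acts below ERK1/2 and left *Egr1* at the WT level, with 13.38 to 13.51 in 3 libraries. Cells treated with PD0325901 were lower (-4.61, limma adjusted p = 1.5e-41). The compound and the experiment cannot be told apart here either. Between both inhibitors 116 genes (0.969%) were lower and 42 (0.351%) higher with PD0325901. Summed ribosomal RNA reads were at 16.27 to 17.15 with RSKi47 and 14 to 15.56 with PD0325901. Fibroblast and stromal markers were at 5.90 to 6.47 and 5.38 to 5.69, while macrophage markers overlapped (19.1 to 19.18 and 19.07 to 19.17). The part of these differences in the counts was not tested. *Egr3* (-1.84), *Ier2* (-1.55), *Fosb* (-1.00), *Nr4a1* (-0.87, 95% interval -1.31 to -0.44), *Fos* (-0.53), and *Ier3* (-0.47) were lower with PD0325901. Relative to WT, RSKi47-treated cells differed by -0.95 for *Fosb*, -0.87 for *Nr4a1*, and -0.81 for *Fos*, and of these *Fosb* passed when RSKi47-treated cells without LPS were the baseline (-0.92, limma adjusted p = 0.024). *Il10* went the other way, being 1.06 higher with PD0325901 than with RSKi47 (limma adjusted p = 0.00011), and *Dusp6* was 0.50 higher. The compounds were compared at 1 dose each, 0.1 µM and 2 µM, and the labels set no equivalence between these doses.

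**Figure D4:**
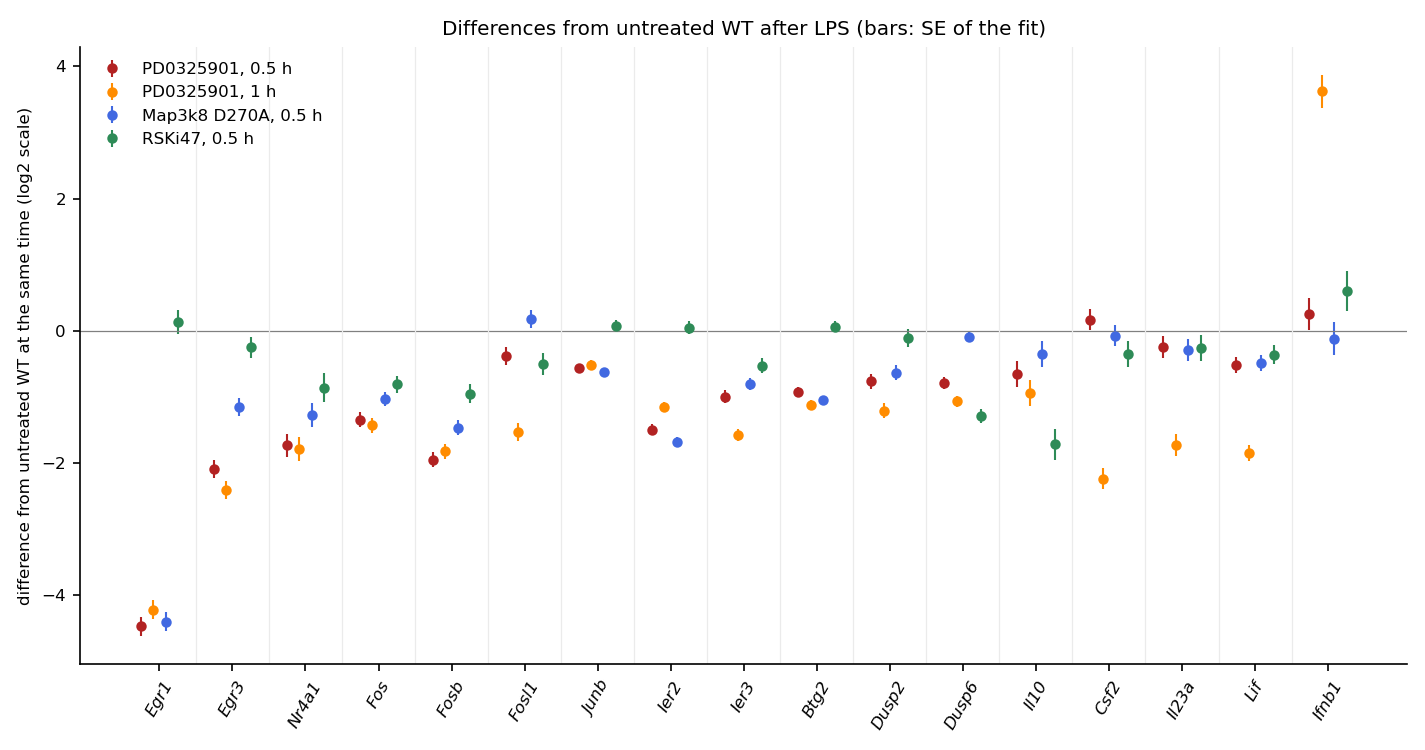
Differences from untreated WT cells at the same LPS time, on the deposited log2 scale (y axis) with SE bars, for 17 genes (x axis) in PD0325901-treated cells at 0.5 h and 1 h, D270A cells at 0.5 h, and RSKi47-treated cells at 0.5 h. *Egr1* lies between -4.48 and -4.22 in both PD0325901 groups and in D270A cells and near 0 with RSKi47 (0.13), and *Csf2* and *Ifnb1* part between 0.5 h and 1 h of PD0325901.

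The untreated WT libraries at 0.5 h of LPS fell in 2 sets by replicate number, 4 to 6 and 7 to 9. Correlations of their deviations from the group mean were -0.159 to 0.532 within a set and -0.647 to -0.325 between sets. Against replicates 4 to 6 and 7 to 9, the inhibitor difference was -4.19 and -4.77 for *Egr1*, -1.69 and -2.51 for *Egr3*, -1.42 and -2.49 for *Fosb*, -1.27 and -2.21 for *Nr4a1*, and -1.22 and -1.47 for *Fos*. These differences were larger against replicates 7 to 9 for each of the 8 early genes and passed the test against both sets. *Dusp2* was at 10.95 to 11.18 in WT replicates 4 to 6 and at 12.02 to 12.20 in replicates 7 to 9. Against the former it did not pass (-0.25, limma adjusted p = 0.060), and against the latter it was lower by 1.29 (-1.29). *Il10* similarly passed against replicates 7 to 9 (-0.89) and not against 4 to 6 (-0.43, limma adjusted p = 0.17). Of the 83 named genes, 16 kept their direction and no longer passed against replicates 4 to 6, among them *Dusp5*, *Egr2* (-0.26), *Fosl1* (-0.06), *Hbegf*, *Lif*, *Nfkbid*, *Ccl7*, and *Zfp36*, and 15 against replicates 7 to 9.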

How the data were processed

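RNA from BMDMs was sequenced, and the authors deposited 1 table of log2 expression values for 18098 genes in all libraries of the series, between -2.4 and 19.81. The submitters' processing notes name STAR 2.5.1b, RSEM 1.2.29, DESeq2 1.10.1, and the build mm10. None of the sources used here gives their transformation, and they may be regularised, which understates differences of weakly expressed genes. Because the values are not counts, the depth of each library is unknown and no count model was used. One value above 25 was treated as missing.

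Each group got a mean in a single limma 3.58.1 fit (R 4.3.3) over all libraries, with moderated two-sided tests and Benjamini-Hochberg adjustment over the 11971 genes that reached 10 on the linear scale in 3 libraries. A gene was counted where it differed by 1 or more and its adjusted p was below 0.05, and where stated at the adjusted p alone. Values given in threes are the lowest, median, and highest library of a group. The summed level of a marker list is the log2 of its members' summed linear values. The script was tested on simulated data. Promoters and gene positions were taken from RefSeq tables of GRCm38.p6, in which 377 of 378 genes shown had a position.

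The rule for named genes took the 10 largest decreases and 10 largest increases whose groups did not overlap, up to 4 members of each list with the largest difference at an adjusted p below 0.05, and genes named by the study, 83 in all. A further gene under the rule is left out. Other genes in the text were chosen after their values were seen. The comparison and the gene lists were chosen with earlier results of these data known. Alternatives were another set of libraries in the fit, a variance trend, no or a stricter filter (50 in 6 libraries), quantile normalisation, averaged replicates, parts of the WT libraries, leaving out each library, a replicate block, other thresholds, and subtraction of the DMSO difference. The 10 min baseline, and the DMSO subtraction in the D270A comparison, were added after seeing the data.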

Additional observations from a re-analysis of the deposited data

Results flagged for a closer look

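Within groups of 6 libraries, 1 library stood far from the others by Dixon's criterion in 5 of 166 gene and group pairs (3.01%), where chance gives about 1 in 20. *Egr1* was at 14.27 in WT replicate 8 with LPS and at 13.02 to 13.28 in the other WT libraries. *Isg15*, an interferon-induced ubiquitin-like protein, was at 10.03 in the same library and 9.52 to 9.69 in the others. *Txnrd1* was at 12.66 in WT replicate 9 (others 12.32 to 12.42), and *Xcr1*, a receptor of dendritic cells, at 3.20 in WT replicate 6 (others 2.97 to 3.03). *Dusp6* was at 9.31 in PD0325901 replicate 2 (others 9.39 to 9.44). Each of the *Egr1* values in the inhibitor-treated group lay below the lowest WT value as well.

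The difference between inhibitor-treated and untreated cells changed between 0.5 h and 1 h of LPS for 12 genes, by the test of the change in limma. The change was -2.41 for *Csf2*, -1.49 for *Il23a*, -1.33 for *Lif*, -1.26 for *Il1bos* (an antisense RNA at *Il1b*, whose reads cannot be told from those of *Il1b* unless the counting used the strand, which the sources do not state, though the methods call the reads strand-specific), -1.21 for *Plat*, -1.16 for *Fosl1*, -1.14 for *Errfi1*, -1.08 for *Il1a*, and -1.02 for *Elmsan1*. It was 3.37 for *Ifnb1*, 1.71 for *Ifna2*, and 1.48 for *Ifna5*, where the 2 *Ifna* genes have near-identical relatives that can share reads.

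The LPS response differed between inhibitor-treated and untreated cells for 7 genes raised in WT, by the test of the difference. It was smaller by 3.40 for *Egr1* (-3.40), and the values were -1.87 for *Fosb*, -1.55 for *Egr3*, -1.29 for *Ier2*, -1.24 for *Nr4a1*, -1.01 for *Dusp2*, and -1.00 for *Spry1*.

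In the libraries after 70 min of PD0325901 without LPS, which are not part of any contrast tested above, 3 genes stood above the DMSO libraries in each library. The lowest value of *Mir6236* was 8.68 (DMSO 2.39 to 2.64), that of *Fabp7* 7.54 (DMSO 2.87 to 3.06), and that of *Igfbp2* 3.31 (DMSO 0.56 to 0.58).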

How the results depend on the processing

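Depth is unknown, and the scale of the values sets how a size threshold of 1 is read. At a threshold of 0.69, a 2-fold change if the values are natural logarithms, 73 genes were lower and 81 higher with the inhibitor (main 23 and 26), 5 had a larger response (3), 24 and 9 changed between the times (9 and 3), and 68 and 126 differed from D270A cells (21 and 31). At an adjusted p alone these counts were 1791 and 1733, 91 and 87 for the responses (36 and 3), 80 and 57 between the times, and 1828 and 1905. After subtraction of the DMSO difference they were 7 and 1, and 5 and 4 against D270A cells. The smaller responses numbered 62 without a filter, 15 with the stricter filter, and 10 from the 10 min baseline. With WT replicates 7 to 9 alone, 1 larger response was left, and 4 and 9 genes changed between the times. With WT replicates 4 to 6 alone, 37 fell between the times. The genes higher at 1 h numbered 1 with only the compared groups in the fit, 5 without a filter, and 1 with the stricter filter. Leaving out 1 library gave 21 to 25 lower and 21 to 30 higher genes, 30 to 36 smaller and 1 to 4 larger responses, 6 to 12 and 3 to 5 changes with time, and 20 to 23 and 27 to 35 differences from D270A, with 1 larger response without replicate 1 of PD0325901 at 40 min and 5 genes higher at 1 h without WT replicate 6 at 1 h.

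Replicate numbers gave no clear pairing of WT with PD0325901 libraries after LPS, where deviations of libraries with the same number correlated at -0.0589, -0.0767, and 0.178. Whether the numbers pair libraries without and with LPS of the same experiment was not checked. With the number as a replicate block, 36 genes were lower and 36 higher with the inhibitor, a comparison that then rests on replicates 4 to 6 of WT. For the LPS responses, WT and inhibitor-treated libraries were blocked apart, and 30 and 2 responses were smaller and larger. With the block, 20 and 30 genes differed from D270A cells.

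Of the 83 named genes, directions turned under these settings. *Nfkb1* was at -0.0296 after quantile normalisation, -0.000966 with the block, and between -0.0027 and 0.0214 when 1 library was left out. *Fosl2* was at 0.179 against WT replicates 4 to 6 and 0.173 with the block. After the DMSO subtraction 21 turned: *Acat2* -0.0634, *Actn1* -0.061, *Cmpk2* -0.246, *Cxcl10* -0.262, *Cyp2s1* -0.0712, *Fcgr1* -0.114, *Fdps* -0.0776, *Hspa5* -0.107, *Ifit1bl1* -0.322, *Ifit2* -0.348, *Ifit3* -0.276, *Isg15* -0.186, *Nfkb1* -0.0688, *Batf* 0.0777, *Elk1* 0.0205, *Elk3* 0.0263, *H2-Q9* 0.172, *Jund* 0.179, *Tnip2* 0.000879, *Traf1* 0.0166, and *Txnrd1* 0.051. The cause was not tested. A further 40 kept their direction and no longer passed. *Fosb* has no value in the fit without a filter because of its missing value, *Ccr7* has none in the fits with only the compared groups, and *Ccr7*, *Xcr1*, and *Fosl1* have none with the stricter filter.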
